A study of Mus musculus with 29 samples.

Results

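The mice described here lacked Maf1 in every cell, and the question was how their liver mRNAs differed from those of Ctrl mice on the same diet. The cohort held 12 of the 29 liver RNA-seq libraries of the study, namely all 5 Maf1-/- mice and all 7 Ctrl mice of the whole-body line fed Chow. All 12 were male C57BL/6 mice of 13 to 14 weeks, on Chow from 4 to 5 weeks of age, fasted overnight and refed for 4 h before the liver was taken. The labels call the Ctrl mice only controls, and the other 17 libraries belong to a line in which Alb-Cre, active in hepatocytes, deletes Maf1, with 4 Chow-fed and 4 HF-fed Maf1hep-/- mice and 4 and 5 Ctrl mice of their own. The methods state that mothers in that hepatocyte-specific line carried no deletion.

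MAF1 is a repressor of RNA polymerase III (Pol III), the enzyme that transcribes tRNA genes, 5S rRNA and other short RNAs. Nutrient and growth signals that pass through mTOR lead to its phosphorylation, which weakens this repression, and in mammalian cells MAF1 restrains Pol III in fed as well as in stressed states. The liver after a night without food and a few hours of refeeding is a setting in which insulin, bile acid and amino acid signals all change, and the gene groups below are ordered by those roles. Tables of mRNAs such as this one hold Pol III subunits and translation genes but give no level of the tRNAs themselves.

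The targeted locus matched the labels in all 12 libraries. Maf1 mRNA measured 0.263, 0.0672, 1.003, 0.0779 and 0.327 CPM (counts scaled by library size with TMM factors) in Maf1-/- mice 1 to 5 and 4.61 to 9.38 CPM (median 8.09) in Ctrl. Gm35339, the gene next to Maf1 on chromosome 15, measured 25.0 to 39.3 CPM in Maf1-/- and 0.476 to 1.01 CPM in Ctrl. Both genes follow from the allele and were left out of every count below.

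Libraries held 53987277 to 75682301 expected counts in Ctrl and 48658192 to 57345449 in Maf1-/-, and they differed in how mRNA levels depended on the GC content of the transcript. For each library, log2 CPM was taken as the deviation of each mRNA from its mean over the 12 libraries. The trend of this deviation over GC content was read at the 10th and 90th percentile of GC (40.8% and 57.2%). The difference between both readings is called the GC slope, which is relative to the cohort and not an absolute dependence on GC. It was -0.0953, 0.114, -0.745, -0.859 and -0.319 in Maf1-/- mice 1 to 5, and 0.277 to 0.558 in 6 of the 7 Ctrl mice. Ctrl 2, at -0.919, had the lowest slope of all 12 libraries, and Maf1-/- 2 was the only mouse of its genotype above 0. The mean slope was 0.272 ± 0.535 (SD) in Ctrl and -0.381 ± 0.416 (SD) in Maf1-/- (exact two-sided permutation test over every split of the 12 mice, p = 0.0505). GC slope and genotype moved together in this cohort, and across 12785 mRNAs, which are not independent replicates, Spearman's rho between log2(FC) and GC content was -0.68. The part of the GC slope in the results was not tested, so list counts are given with all 12 mice, without the mice numbered 2, and with offsets that remove the GC trend of each library (GC offsets), and named mRNAs with 12 mice and with the other fits where these are shown.

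**Figure D1:**
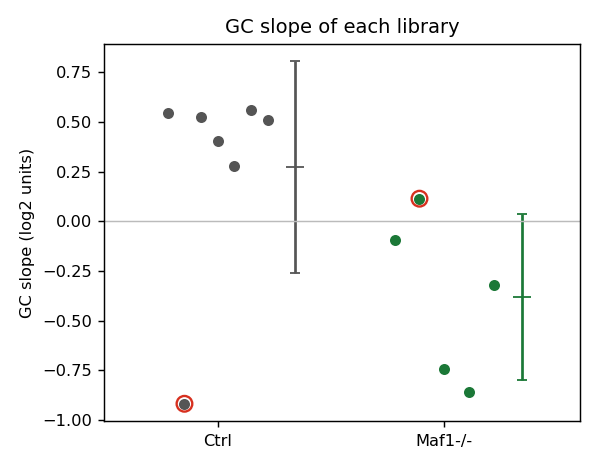
GC slope of each library in log2 units (y axis) for 7 Ctrl and 5 Maf1-/- mice, with the mean ± SD beside the points and the mice numbered 2 circled in red. Ctrl 2 sits at -0.919, below every Maf1-/- mouse, while the other Ctrl mice lie between 0.277 and 0.558.

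Markers of hepatocytes had a summed level of 71766 to 99448 CPM in Ctrl and 77518 to 104643 CPM in Maf1-/-, with 6 of 7 markers in the table. Those of Kupffer cells (16 of 16) summed to 299 to 511 CPM in Ctrl and 309 to 449 CPM in Maf1-/-, and those of sinusoidal endothelium (14 of 14) to 391 to 484 and 385 to 477 CPM. Stellate cell markers (12 of 12) summed to 397 to 574 CPM in Ctrl and 463 to 764 CPM in Maf1-/-. Adipocyte markers were not in the table (0 of 6), and 1 of 14 lymphocyte, 2 of 8 neutrophil and 1 of 10 pancreas markers were. In whole liver, fewer cells of a type and less RNA per cell cannot be told apart.

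With all 12 mice, no mRNA outside the locus passed an adjusted p of 0.05 in edgeR, where 12794 were tested, while DESeq2 called 312 and limma-voom 1. The smallest adjusted p was that of Mettl7b, 0.0512. At an unadjusted p under 0.05 there were 3357 mRNAs (26.2% of those tested), 1384 higher (10.8%) and 1973 lower (15.4%) in Maf1-/-. Without Ctrl 2 and Maf1-/- 2, 6055 of 12712 mRNAs (47.6%) passed an adjusted p of 0.05, 2954 higher (23.2%) and 3101 lower (24.4%). Of those tested, 723 (5.69%) also lay beyond a log2(FC) of 1 in either direction, 100 higher and 623 lower. With GC offsets in the same 10 mice these were 87 and 158. Because those libraries were left out with their values known, the p-values of that 10-mouse fit are too small and serve to rank mRNAs. Of its calls, 3176 also had an unadjusted p under 0.05 in all 12 mice. With GC offsets and 12 mice, 2258 mRNAs (17.6%) had an unadjusted p under 0.05, 1112 higher (8.69%) and 1146 lower (8.96%). The mRNAs called higher in 10 mice had a median GC content of 43.4%, those called lower 55.4%, and all tested 49.0%.

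Only 55 mRNAs (0.43%) had levels that did not overlap between the 5 Maf1-/- and all 7 Ctrl mice, the mice numbered 2 included. Of these, 31 (0.242%) were higher and 24 (0.188%) lower in Maf1-/-, 49 were among the calls in 10 mice, and 45 had an unadjusted p under 0.05 with GC offsets. Their median GC content was 47.1% for the higher and 51.1% for the lower ones. Values below are CPM in each mouse, and log2(FC) is Maf1-/- against Ctrl with its standard error (SE) in 12 mice unless another fit is named. At the levels used for the gene lists below, the shares of all mRNAs were 26.2% in 12 mice and 47.6% in 10 mice. With GC offsets the share of all mRNAs was 17.6%.

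Among the mRNAs higher in every Maf1-/- mouse, Noct, which encodes nocturnin, a rhythmically expressed phosphatase of nicotinamide dinucleotides, measured 13.03, 18.9, 14.5, 13.04 and 8.08 CPM in Maf1-/- mice 1 to 5 and 4.01 to 8.02 CPM (median 5.56) in Ctrl. Its log2(FC) was 1.18 ± 0.20 with 12 mice (adjusted p = 0.116), 1.11 ± 0.19 with 10 mice (adjusted p = 0.000932) and 1.08 ± 0.19 with GC offsets. The lowest Maf1-/- mouse, number 5, was just above the highest Ctrl mouse, number 2. Plod2, a lysyl hydroxylase that prepares collagen for crosslinking, measured 1.11, 1.58, 1.495, 1.62 and 1.51 CPM against 0.398 to 1.03 CPM (median 0.714) in Ctrl, a log2(FC) of 0.997 ± 0.222. Brca1, which acts in DNA repair, measured 2.72, 2.42, 2.02, 4.32 and 2.04 CPM against 1.03 to 1.96 CPM (median 1.36), a log2(FC) of 0.88 ± 0.22. Both differences kept their direction with GC offsets, at 0.82 ± 0.20 for Plod2 and 0.77 ± 0.21 for Brca1. The chromatin remodeller Chd2 (log2(FC) 0.34 ± 0.09), the membrane-cytoskeleton adaptor Ank3 (0.44 ± 0.11) and Apol7a (0.35 ± 0.08) differed by less, at mean levels in Maf1-/- of 39.8, 37.5 and 123 CPM. Zfp354b, Cdc42ep3, Rapgef5 and the unclassified transcript RP24-252B21.3 were separated in the same direction, with log2(FC) of 0.78, 0.71, 0.40 and 0.58.

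A pair of low transcripts had larger log2(FC). Gm11007 measured 1.84, 1.23, 7.95, 6.42 and 6.08 CPM in Maf1-/- mice 1 to 5 and 0.056 to 1.15 CPM (median 0.823) in Ctrl. The immunoglobulin heavy chain gene Ighg2c, a transcript of B lineage cells, measured 2.25, 1.85, 2.01, 8.33 and 1.69 CPM against 0.443 to 1.41 CPM (median 0.836), and 13 of the 14 lymphocyte markers were not in the table. Its log2(FC) without Maf1-/- 4, the highest mouse, was 1.17.

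Lower in every Maf1-/- mouse was Mettl7b, a thiol methyltransferase found on endoplasmic reticulum (ER) and lipid droplets. It measured 294, 319, 271, 349 and 271 CPM in Maf1-/- mice 1 to 5 and 409 to 540 CPM (median 500.2) in Ctrl, a log2(FC) of -0.70 ± 0.11 in 12 mice, -0.76 ± 0.10 in 10 mice and -0.46 ± 0.11 with GC offsets. Ctrl 2 was its lowest Ctrl mouse but still lay above all 5 Maf1-/- mice. Slc25a30, a mitochondrial carrier, measured 6.97, 6.52, 9.95, 4.40 and 6.76 CPM against 10.9 to 34.2 CPM (median 14.9), a log2(FC) of -1.41 ± 0.28 that became -1.57 ± 0.30 with GC offsets. Slc22a5, the carnitine transporter of the plasma membrane, measured 25.7, 19.6, 25.4, 18.8 and 24.6 CPM against 26.4 to 42.4 CPM (median 31.9), a log2(FC) of -0.50 ± 0.13. The groups were separate for each of these, although by less than 1 CPM for Slc25a30 and Slc22a5. Phospho1, a phosphatase of phosphocholine (log2(FC) -1.31 ± 0.30), the interferon gamma receptor chain Ifngr2 (-0.45 ± 0.11), the death-domain adaptor Cradd (-0.39 ± 0.09), the coatomer subunit Copz1 (-0.28 ± 0.09), the acyltransferase Mboat7 (-0.26 ± 0.08), the lysosomal sialic acid exporter Slc17a5 (-0.31 ± 0.10), Tspan7 (-0.38 ± 0.10) and the UFM1 protease homologue Ufsp1 (-0.73 ± 0.22) were lower too. Echdc2 (-0.29 ± 0.09) was the exception to a stable direction, since its log2(FC) was 0.14 ± 0.16 with GC offsets.

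**Figure D2:**
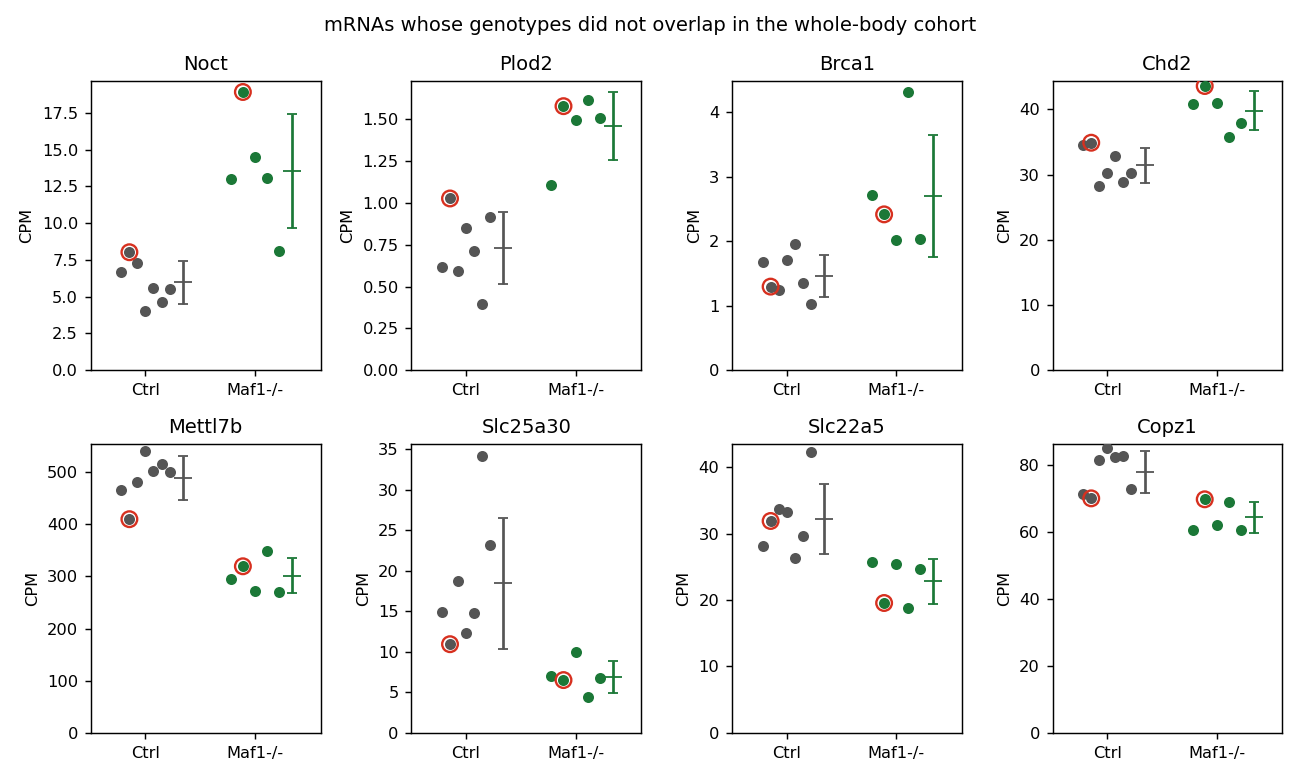
CPM (y axes, from 0) of 8 mRNAs in each of 7 Ctrl and 5 Maf1-/- mice, with mean ± SD beside the points and the mice numbered 2 circled in red. Noct, Plod2, Brca1 and Chd2 are higher in every Maf1-/- mouse and Mettl7b, Slc25a30, Slc22a5 and Copz1 are lower, with Ctrl 2 often the Ctrl mouse nearest to Maf1-/-.

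Bile acid synthesis held a pair of mRNAs, an enzyme and its repressor, with differences in opposite directions. Of 19 mRNAs of bile acid synthesis and transport, 3 were higher and 6 lower at an unadjusted p under 0.05, and 5 and 6 were called in 10 mice (4 and 2 with GC offsets), with a median log2(FC) of 0.055 against 0.0030 over all mRNAs. Cyp7a1, the rate-limiting enzyme that starts bile acid synthesis from cholesterol, measured 381, 288, 279, 580 and 225 CPM in Maf1-/- mice 1 to 5. In Ctrl it measured 70.8 to 334 CPM (median 109), and the 334 CPM was that of Ctrl 2. Nr0b2, which encodes the small heterodimer partner SHP, a repressor of Cyp7a1, lay on the other side, at 7.66, 4.11, 3.39, 5.98 and 6.53 CPM in Maf1-/- and 3.89 to 22.5 CPM (median 16.3) in Ctrl, where 3.89 CPM was again Ctrl 2. The remaining 6 Ctrl mice were separated from all 5 Maf1-/- mice for both mRNAs. The log2(FC) of Cyp7a1 was 1.39 ± 0.36 with 12 mice (adjusted p = 0.152), 1.87 ± 0.26 with 10 mice (adjusted p = 0.000472) and 1.21 ± 0.28 with GC offsets. That of Nr0b2 was -1.47 ± 0.33, -1.55 ± 0.20 and -0.94 ± 0.25 in the same fits.

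Other steps of the pathway did not all move with Cyp7a1. Nr1h4, the bile acid receptor FXR that induces Nr0b2, measured 137, 122, 138, 124 and 139 CPM in Maf1-/- and 80.04 to 130 CPM (median 89.99) in Ctrl, a log2(FC) of 0.45 ± 0.12. Of 2 mRNAs chosen after their values were seen, Akr1d1, a steroid reductase downstream of Cyp7a1, had a log2(FC) of 0.57 ± 0.16. The other, Cyp8b1, the sterol 12-alpha-hydroxylase that directs synthesis to cholic acid, measured 318, 336, 233, 135 and 224 CPM against 308 to 430 CPM (median 391), a log2(FC) of -0.61 ± 0.19. Cyp7b1, of the alternative pathway, measured 89.5 to 334 CPM in Maf1-/- and 73.9 to 367 CPM in Ctrl, so that its genotypes overlapped over almost the whole range (log2(FC) -0.39 ± 0.36).

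**Figure D3:**
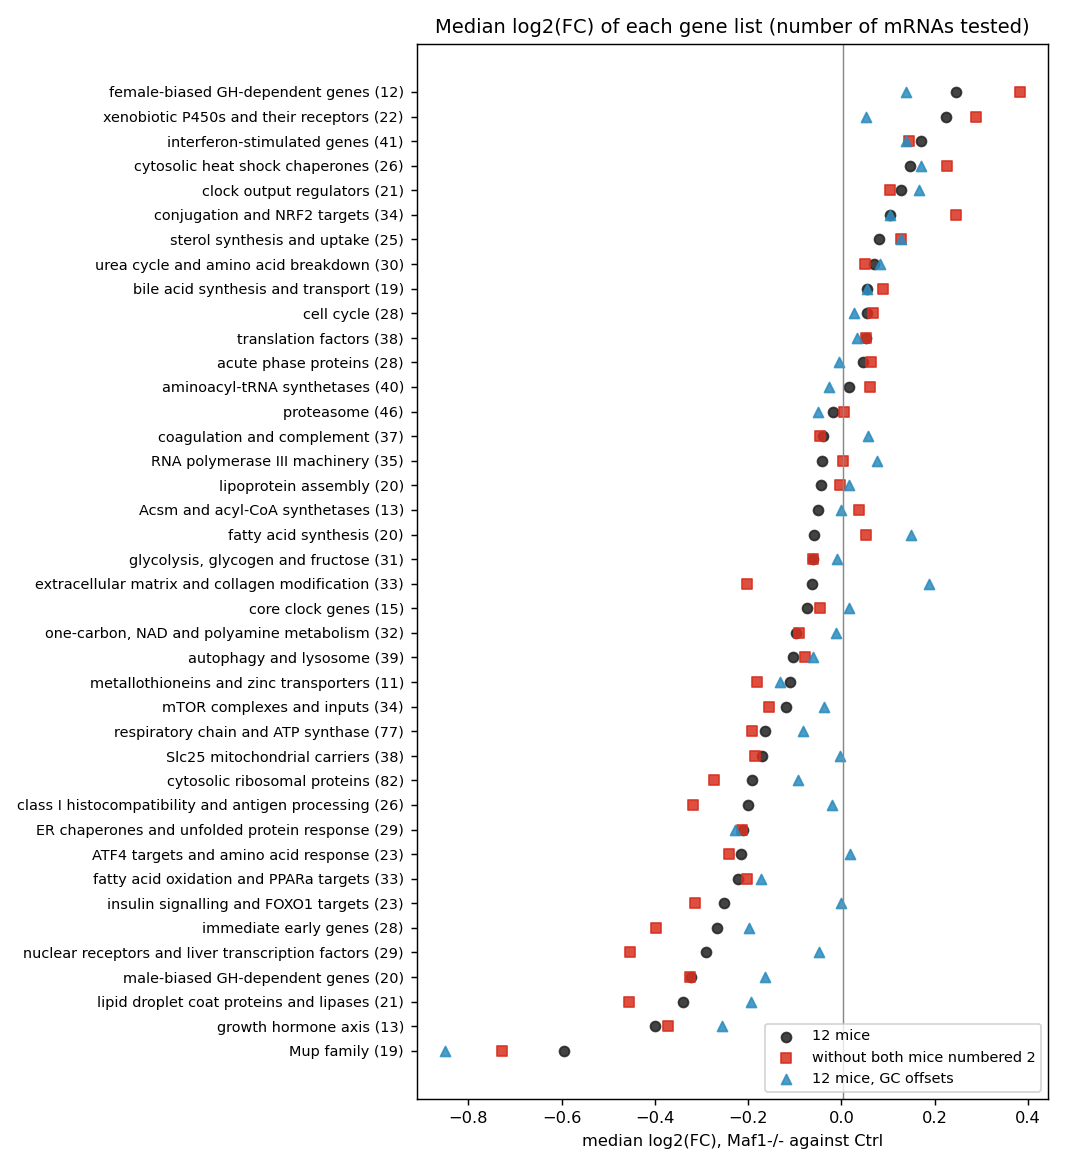
Median log2(FC) of each gene list (x axis, number of mRNAs tested in brackets) with 12 mice, without both mice numbered 2, and with GC offsets in 12 mice, and the grey line marks the median of all mRNAs, 0.0030. The Mup family has the lowest median in each fit, and lists such as extracellular matrix change side with GC offsets, from -0.06 to 0.19.

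Among lists with 10 or more mRNAs tested, lipid droplet proteins and lipases had the highest share lower in Maf1-/- at an unadjusted p under 0.05. At that level 12 of 21 were lower and 1 was higher, in 10 mice 12 were called lower and 2 higher, and with GC offsets 8 were lower and 1 higher. The list's median log2(FC) was -0.34 with 12 mice, -0.45 with 10 mice and -0.19 with GC offsets, and its median GC content was 53.1%. Plin5, which tethers droplets to mitochondria, measured 18.8, 20.4, 12.6, 14.1 and 19.6 CPM in Maf1-/- and 16.8 to 32.7 CPM (median 27.9) in Ctrl, with Ctrl 2 the lowest. Its log2(FC) was -0.70 ± 0.17 with 12 mice, -0.86 ± 0.13 with 10 mice and -0.19 ± 0.09 with GC offsets. Cidec, which promotes droplet fusion, measured 2.48, 5.36, 4.504, 2.02 and 5.14 CPM against 5.30 to 14.2 CPM (median 8.11), a log2(FC) of -1.21 ± 0.31 and of -0.85 ± 0.29 with GC offsets. Its groups overlapped only where Maf1-/- 2 met Ctrl 2. The droplet coat protein Plin3 had a log2(FC) of -0.44 ± 0.13. The lipases Lipe and Pnpla2, chosen after their values were seen, had log2(FC) of -0.88 ± 0.27 and -0.70 ± 0.22 with 12 mice and of -0.54 ± 0.17 and -0.30 ± 0.10 with GC offsets.

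Of 33 mRNAs of fatty acid oxidation and PPAR-alpha targets, 0 were higher and 10 lower at an unadjusted p under 0.05, with a median log2(FC) of -0.22. In 10 mice 4 were called higher and 7 lower, and with GC offsets 0 were higher and 7 lower. The share in 12 mice was 30.3% beside 26.2% of all mRNAs, and that in 10 mice 33.3% beside 47.6%. Ehhadh, the bifunctional enzyme of peroxisomal oxidation, measured 1106, 1548, 1945, 995 and 1581 CPM in Maf1-/- and 1502 to 2931 CPM (median 2243) in Ctrl. Here Ctrl 2, at 2056 CPM, lay within the other Ctrl mice, and the log2(FC) was -0.70 ± 0.20 with 12 mice and -0.79 ± 0.20 with GC offsets. The acyl-CoA thioesterase Acot1 measured 68.0, 44.8, 74.9, 30.5 and 77.7 CPM against 69.7 to 135 CPM (median 95.1), a log2(FC) of -0.79 ± 0.23.

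Fatty acid synthesis showed no common direction, with 2 of 20 mRNAs higher and 3 lower at an unadjusted p under 0.05 (3 and 5 called in 10 mice, 2 and 2 with GC offsets) and a median log2(FC) of -0.06 that became 0.054 with 10 mice and 0.15 with GC offsets. Fasn, the fatty acid synthase, measured 259, 340, 186, 56.5 and 204 CPM in Maf1-/- and 119 to 364 CPM (median 234) in Ctrl. Acaca, acetyl-CoA carboxylase 1, measured 148, 130, 151, 104 and 133 CPM against 87.1 to 139 CPM (median 109), while Acacb, its mitochondrial counterpart, measured 21.1, 24.5, 17.7, 9.79 and 20.9 CPM against 15.4 to 37.1 CPM (median 31.9). The log2(FC) was 0.29 ± 0.13 for Acaca, -0.67 ± 0.23 for Acacb, -0.85 ± 0.29 for the sterol sensor partner Scap and -0.30 ± 0.11 for the citrate carrier Slc25a1, and the last became 0.18 ± 0.17 with GC offsets. For 15 genes that the study names, some of them as proteins or for the hepatocyte-specific cohorts, an exact two-sided permutation test of mean CPM gave none an adjusted p under 0.05. The smallest was for Pdcd4, a translation inhibitor degraded downstream of mTOR, at 57.9, 56.1, 69.9, 56.8 and 55.3 CPM in Maf1-/- and 67.2 to 82.4 CPM (median 73.8) in Ctrl (exact p = 0.00379, adjusted p = 0.0568). Next was Plin2, the main droplet coat protein of hepatocytes, at 365, 314, 334, 260 and 411 CPM against 350.2 to 478 CPM (exact p = 0.0215, adjusted p = 0.161). For Acly (log2(FC) 0.16 ± 0.13), Scd1 (-0.14 ± 0.37), Cd36 (-0.40 ± 0.41), Pdk4 (0.11 ± 0.18) and Fasn (-0.22 ± 0.38) genotypes overlapped, and Scd1 had 0.11 with 10 mice, Fasn 0.18 and Pdk4 -0.02 with GC offsets.

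Of 29 ER chaperones and unfolded protein response genes, 0 were higher and 11 lower at an unadjusted p under 0.05 (37.9% beside 26.2% of all mRNAs). In 10 mice 2 and 11 were called, 44.8% and thus below the 47.6% of all mRNAs, and with GC offsets 0 and 9 differed. The median log2(FC) was -0.21 in 12 mice, -0.21 in 10 mice and -0.23 with GC offsets. Derl3, a channel component of ER-associated degradation, which pulls misfolded proteins out of the ER for the proteasome, measured 3.16, 5.14, 3.54, 9.91 and 2.25 CPM in Maf1-/- and 6.92 to 46.3 CPM (median 22.8) in Ctrl, a log2(FC) of -2.36 ± 0.51 with 12 mice, -2.55 ± 0.51 with 10 mice and -1.79 ± 0.49 with GC offsets. Only Maf1-/- 4 overlapped Ctrl, and the lowest Ctrl mouse was again number 2. Syvn1, the ubiquitin ligase of the same complex, measured 23.9, 48.4, 14.6, 17.99 and 12.6 CPM against 21.2 to 101 CPM (median 64.0), and the log2(FC) was -1.36 ± 0.41 with 12 mice and -0.99 ± 0.32 with GC offsets. Derl1 had a log2(FC) of -0.36 ± 0.10, and Sel1l, Hyou1 and Creld2, chosen after their values were seen, had -0.41 ± 0.13, -0.62 ± 0.20 and -0.89 ± 0.28. The classical chaperone Hspa5 (BiP), also chosen so, measured 1692, 2050, 2161, 3252 and 1865 CPM against 1709 to 2949 CPM (median 2681) and overlapped fully (log2(FC) -0.21 ± 0.18).

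Many promoters of this group carry the ER stress response element, whose letters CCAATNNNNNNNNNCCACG were searched on both strands from 250 bases before to 50 bases after the RefSeq start (GRCm38.p6). It was found in 39 of 32851 promoters (0.119%). Of the 29 listed mRNAs, 25 had a promoter in this set, and 9 of these genes (36.0%) carried the element in any of their promoters. The first share counts promoters and the second genes, so they are not in the same unit. Of the 9 with the element 7 were lower in Maf1-/-, and 3 had an unadjusted p under 0.05, against 6 of the 16 without it. The 3 are shown with 2 that did not pass, Hspa5 and Calr, to set the elements of lower and overlapping mRNAs side by side, with the element in capitals and 10 bases on either side, read along the strand of the gene.
Derl3: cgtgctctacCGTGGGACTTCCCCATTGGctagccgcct
Creld2: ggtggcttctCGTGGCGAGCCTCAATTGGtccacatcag
Syvn1: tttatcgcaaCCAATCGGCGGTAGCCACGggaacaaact
Hspa5: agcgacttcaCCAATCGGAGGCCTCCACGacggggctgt
Calr: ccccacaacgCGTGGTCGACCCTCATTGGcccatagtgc
In Derl3, Creld2 and Calr the element lies on the opposite strand. These windows are at chr10:75893232-75893270 (plus strand) for Derl3, chr15:88819510-88819548 (plus strand) for Creld2, chr19:6046522-6046560 (plus strand) for Syvn1, chr2:34772015-34772053 (plus strand) for Hspa5 and chr8:84847065-84847103 (minus strand) for Calr. The end of the element nearer to the gene lies 138, 108, 26, 47 and 144 bases before the RefSeq start in the same order. The calreticulin mRNA Calr, chosen after its values were seen, had a log2(FC) of 0.07 ± 0.12, so a perfect match was present in promoters of mRNAs on both sides.

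Immediate early genes, which respond within minutes to growth factors and stress, were mixed, as 5 of 28 were higher and 8 lower at an unadjusted p under 0.05 (3 and 10 called in 10 mice, 4 and 7 with GC offsets), with a median log2(FC) of -0.27 (GC offsets -0.20). The share was 46.4% in 12 mice and also in 10 mice, beside 26.2% and 47.6% of all mRNAs. The members described next had lower means in Maf1-/-, and the 5 higher ones are left to the counts. Junb, an AP-1 subunit, measured 0.808, 1.43, 0.246, 0.253 and 0.817 CPM in Maf1-/- and 0.234 to 5.34 CPM (median 4.10) in Ctrl, and the low end was Ctrl 2. Its log2(FC) was -2.29 ± 0.60 with 12 mice, -2.92 ± 0.38 with 10 mice and -1.61 ± 0.41 with GC offsets. Zfp36, an mRNA decay factor, measured 15.0, 18.8, 15.2, 11.2 and 13.1 CPM against 16.4 to 27.6 CPM (median 24.2), a log2(FC) of -0.68 ± 0.14. The MAP kinase phosphatase Dusp1, at 4.99, 6.08, 5.96, 5.33 and 7.27 CPM against 7.19 to 14.6 CPM (median 10.2), had a log2(FC) of -0.83 ± 0.19 and -0.60 ± 0.18 with GC offsets. For Dusp1 only Maf1-/- 5 reached into Ctrl, and Ctrl 2, at 8.92 CPM, was not the lowest. Egr1, chosen after its values were seen, measured 2.16 to 7.83 CPM against 1.68 to 20.5 CPM and overlapped widely.

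Of 23 mRNAs of insulin signalling and FOXO1 targets, 1 was higher and 4 lower at an unadjusted p under 0.05 (21.7% beside 26.2% of all mRNAs). In 10 mice 3 were called higher and 9 lower (52.2% beside 47.6%), and with GC offsets 0 were higher and 3 lower. The median log2(FC) of -0.25 became -0.0017 with GC offsets. Irs2, the insulin receptor substrate that FOXO1 induces in fasting, measured 2.56, 2.64, 2.04, 4.07 and 1.88 CPM in Maf1-/- and 2.47 to 10.7 CPM (median 5.25) in Ctrl. Its log2(FC) was -1.22 ± 0.32 with 12 mice and -0.78 ± 0.30 with GC offsets. Igfbp1, another FOXO1 target and chosen after its values were seen, had a log2(FC) of -1.04 ± 0.45 and of -0.96 ± 0.44 with GC offsets, at 2.06 to 5.22 CPM in Maf1-/- and 1.86 to 15.8 CPM in Ctrl, and of -0.66 without Ctrl 5. Inppl1 and Pik3ca, a lipid phosphatase and a kinase of the pathway, differed in 12 mice (log2(FC) -0.43 ± 0.15 and 0.29 ± 0.11) but had -0.01 ± 0.09 and 0.06 ± 0.08 with GC offsets.

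Cytosolic heat shock chaperones had 9 of 26 mRNAs higher and 2 lower at an unadjusted p under 0.05 (9 and 5 called in 10 mice, 5 and 1 with GC offsets), and a median log2(FC) of 0.15 that was 0.17 with GC offsets. The HSP40 co-chaperone Dnajb4 measured 49.6, 55.3, 69.2, 57.1 and 46.2 CPM in Maf1-/- and 26.7 to 53.2 CPM (median 37.4) in Ctrl, where the highest was Ctrl 2. Its log2(FC) was 0.55 ± 0.15, and 0.34 ± 0.11 with GC offsets. The HSP90 co-chaperone Chordc1 had a log2(FC) of 0.55 ± 0.18 and Dnaja2 of 0.32 ± 0.11. Hsp90aa1, chosen after its values were seen, measured 1046, 944, 1944, 1703 and 1301 CPM against 763 to 1336 CPM (log2(FC) 0.52 ± 0.20). The small chaperone Hspb1, chosen likewise, went the other way (log2(FC) -0.88 ± 0.31), but this was -0.14 ± 0.30 with GC offsets, 0.06 with GC offsets in 10 mice and -0.57 without Ctrl 6.

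**Figure D4:**
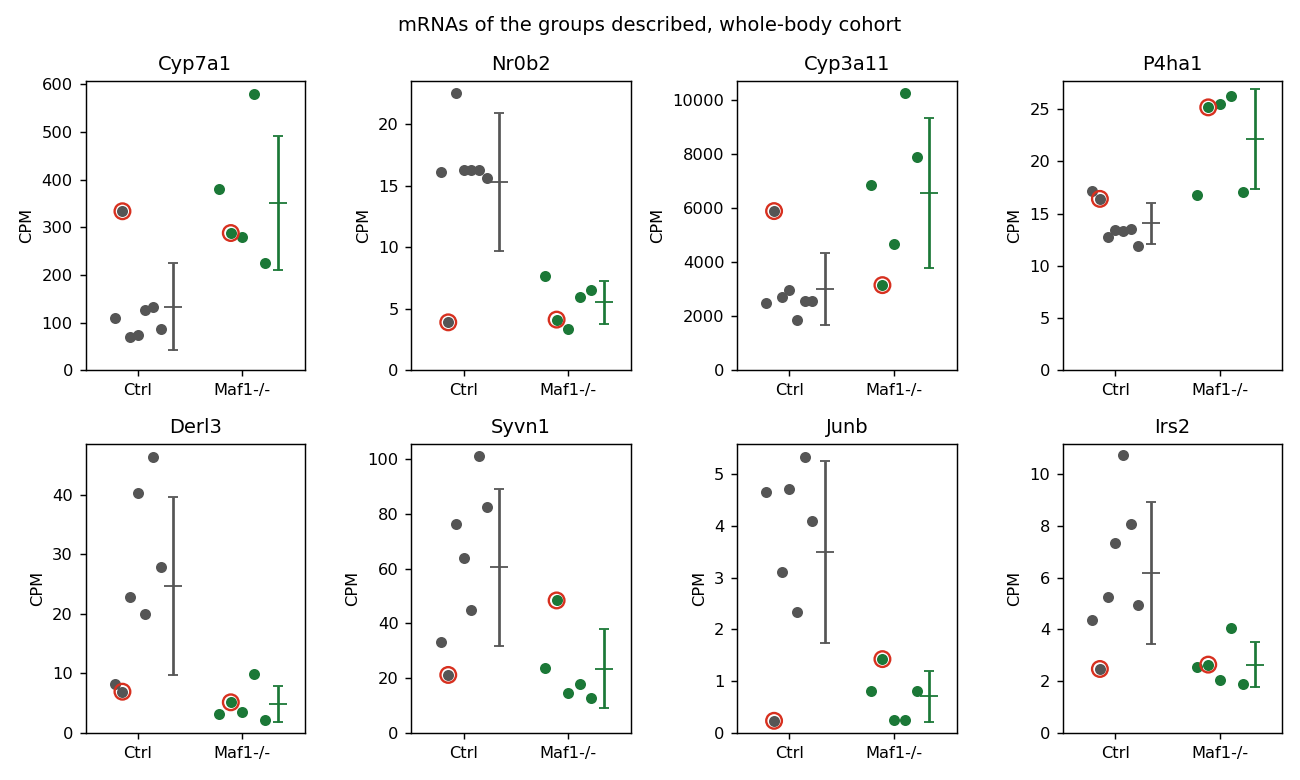
CPM (y axes, from 0) of Cyp7a1, Nr0b2, Cyp3a11, P4ha1, Derl3, Syvn1, Junb and Irs2 in each of 7 Ctrl and 5 Maf1-/- mice, with mean ± SD beside the points and the mice numbered 2 circled in red. For Cyp7a1 (334 CPM), Nr0b2 (3.89 CPM) and Cyp3a11 (5893 CPM), Ctrl 2 lies among the Maf1-/- mice and apart from the other 6 Ctrl mice.

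Among 33 mRNAs of the extracellular matrix and collagen modification, 8 were higher and 5 lower at an unadjusted p under 0.05, 8 and 11 were called in 10 mice, and 13 and 2 differed with GC offsets, with medians of -0.06, -0.20 and 0.19 in the same order. The enzymes that hydroxylate collagen were split. P4ha1, the prolyl hydroxylase subunit, measured 16.8, 25.2, 25.5, 26.2 and 17.0 CPM in Maf1-/- and 11.9 to 17.1 CPM (median 13.4) in Ctrl, a log2(FC) of 0.66 ± 0.14 with 12 mice, 0.65 ± 0.15 with 10 mice and 0.54 ± 0.12 with GC offsets. Plod2 was separated in the same direction, as given above. The related lysyl hydroxylases Plod1 and Plod3, chosen after their values were seen, had log2(FC) of -0.47 ± 0.15 and -0.74 ± 0.25, and -0.30 ± 0.10 and -0.26 ± 0.14 with GC offsets. Mmp2, a gelatinase, measured 2.76, 2.28, 3.12, 2.24 and 2.96 CPM against 0.991 to 2.15 CPM (median 1.80), so that its genotypes did not overlap, and its log2(FC) of 0.62 ± 0.18 was 0.95 ± 0.15 with GC offsets. Col3a1, a fibrillar collagen chosen after its values were seen, had a log2(FC) of 0.28 ± 0.12 and of 0.42 ± 0.13 with GC offsets.

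Stellate cells are the main source of such proteins in liver, and of 12 stellate markers 3 were higher and 2 lower at an unadjusted p under 0.05 (4 and 4 called in 10 mice, 3 and 0 with GC offsets). Dcn, the matrix proteoglycan decorin, measured 230, 152, 267, 364 and 279 CPM in Maf1-/- and 129.6 to 257 CPM (median 141) in Ctrl, and Bmp5, a BMP ligand, measured 20.4, 13.8, 22.0, 23.1 and 19.6 CPM against 9.35 to 18.8 CPM (median 10.95). In both, Maf1-/- 2 was the lowest of its genotype and Ctrl 2 the highest of the Ctrl mice. The log2(FC) was 0.64 ± 0.22 for Dcn and 0.67 ± 0.18 for Bmp5, and 0.38 ± 0.17 and 0.43 ± 0.12 with GC offsets. The neurotrophin receptor Ngfr, another stellate marker, had a log2(FC) of -0.72 ± 0.20 and of -0.22 ± 0.15 with GC offsets. Whether stellate markers take part in the matrix values was not tested.

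Core clock genes gave 1 of 15 higher and 1 lower at an unadjusted p under 0.05 (3 and 4 called in 10 mice, 3 and 1 with GC offsets), and clock output regulators gave 4 of 21 higher and 4 lower (3 and 4 in 10 mice, 6 and 2 with GC offsets). Nfil3, a repressor of D-box genes, measured 11.6, 5.69, 6.78, 9.87 and 6.51 CPM in Maf1-/- and 8.93 to 21.9 CPM (median 12.9) in Ctrl, a log2(FC) of -0.82 ± 0.24. Nampt, the rate-limiting enzyme of NAD salvage, measured 103, 76.5, 123, 141 and 137 CPM against 49.4 to 123 CPM (median 69.0), a log2(FC) of 0.66 ± 0.21 and of 0.43 ± 0.13 with GC offsets. Ctrl 2 held the highest Nampt of the Ctrl mice. Nr1d2, a repressor of the core loop, had a log2(FC) of 0.44 ± 0.18, and Npas2, an activator chosen after its values were seen, -0.88 ± 0.25. Per1, chosen likewise, ranged from 0.545 to 5.51 CPM in Maf1-/- and from 1.12 to 2.35 CPM in Ctrl, so that mice 1 to 3 of Maf1-/- lay above Ctrl and mice 4 and 5 below.

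Major urinary proteins are pheromone carriers made by the male liver under pulsatile growth hormone, and their mRNAs share much sequence, so that counts may be split among paralogs. Of 19 Mup mRNAs, 17 had a lower level in Maf1-/-. At an unadjusted p under 0.05, 4 were lower and 0 higher. In 10 mice 0 were called higher and 5 lower, and with GC offsets 0 were higher and 6 lower. The share in either direction was 21.1% in 12 mice and 26.3% in 10 mice, below the 26.2% and 47.6% of all mRNAs. The median log2(FC) was -0.60 with 12 mice, -0.73 with 10 mice and -0.85 with GC offsets. Mup2 measured 10.3, 73.9, 18.2, 4.91 and 18.1 CPM in Maf1-/- and 15.5 to 278 CPM (median 106) in Ctrl, a log2(FC) of -2.11 ± 0.75 that was -3.08 without Maf1-/- 2 and -3.27 with 10 mice. Mup10 (log2(FC) -0.80 ± 0.30) and Mup9 (-1.80 ± 0.70, but -1.16 without Ctrl 6) were lower as well. In each of the 3, Maf1-/- 2 was the highest of its genotype, and Ctrl 2 was the lowest Ctrl mouse for Mup2.

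Other growth hormone dependent mRNAs gave small counts. Of 20 male-biased mRNAs 0 were higher and 3 lower at an unadjusted p under 0.05 (median log2(FC) -0.32), of 12 female-biased mRNAs 3 were higher and 0 lower (median 0.25), and of 13 of the growth hormone axis itself 1 was higher and 2 lower (median -0.40). In the same order the calls in 10 mice were 0 and 2, 4 and 0, and 2 and 4, and with GC offsets 0 and 3, 1 and 0, and 1 and 2. Igfals, which carries IGF1 in blood, measured 58.4, 58.5, 28.9, 36.8 and 36.5 CPM in Maf1-/- and 22.9 to 102 CPM (median 86.3) in Ctrl, with Ctrl 2 lowest, and its log2(FC) of -0.82 ± 0.31 was -0.26 ± 0.16 with GC offsets. Stat5b, the transcription factor of the axis, had a log2(FC) of -0.46 ± 0.18, and the kinase Jak2 of 0.39 ± 0.16 (0.61 with 10 mice). With GC offsets the values were -0.30 ± 0.13 for Stat5b and 0.23 ± 0.12 for Jak2. Among female-biased mRNAs, the peroxisomal transporter Abcd2 had 0.72 ± 0.33 and Fmo1 0.27 ± 0.12 (0.42 with 10 mice). With GC offsets Abcd2 had 0.49 ± 0.31 and Fmo1 0.07 ± 0.08. The value of Cyp2a4, a steroid hydroxylase, came from 1 mouse: it measured 1.37, 0.386, 0.473, 150.0 and 1 CPM in Maf1-/- and 0.154 to 5.02 CPM (median 0.727) in Ctrl, and its log2(FC) of 4.57 ± 1.43 became -0.69 without Maf1-/- 4. The male-biased mRNA Cyp2u1 had -0.36 ± 0.14. Hsd3b5, which is male-biased, and Egfr, of the growth hormone axis, are named by the study and had log2(FC) of -0.13 ± 0.44 and -0.12 ± 0.34, and overlapped throughout.

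Xenobiotic P450s and their receptors gave 4 of 22 higher and 4 lower at an unadjusted p under 0.05, 11 and 5 called in 10 mice, and 3 and 0 with GC offsets. Cyp3a11, the main drug-metabolizing CYP3A of mouse liver, measured 6857, 3151, 4675, 10280 and 7881 CPM in Maf1-/- and 1843 to 5893 CPM (median 2571) in Ctrl. Both the highest Ctrl mouse and the lowest Maf1-/- mouse carried the number 2. The log2(FC) of Cyp3a11 was 1.13 ± 0.31 with 12 mice, 1.56 ± 0.20 with 10 mice and 0.91 ± 0.24 with GC offsets. Cyp2c55 had a log2(FC) of 1.001 ± 0.290 and the aryl hydrocarbon receptor Ahr of 0.60 ± 0.19. Of 34 conjugation enzymes and NRF2 targets 5 were higher and 2 lower, 20.6% beside 26.2% of all mRNAs. In 10 mice 13 and 3 were called (47.1% beside 47.6%), and with GC offsets 3 and 2 differed. Among the higher ones were the sulfotransferase Sult1d1 (log2(FC) 0.59 ± 0.18), the regulator Nfe2l2 itself (0.42 ± 0.14) and the glutathione transferase Gsta4 (0.64 ± 0.23). Nfe2l2 measured 78.0 to 88.8 CPM in all 5 Maf1-/- mice and 48.2 to 89.6 CPM in Ctrl, the highest being Ctrl 2.

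The Pol III machinery, which MAF1 represses at the level of the protein, was divided at the mRNA level. Of 35 mRNAs 9 were higher and 5 lower at an unadjusted p under 0.05 (12 and 8 called in 10 mice, 7 and 5 with GC offsets), and the median log2(FC) was -0.04, which became 0.0037 with 10 mice and 0.076 with GC offsets. Tbp, the TATA-binding protein, measured 17.4, 13.1, 19.2, 18.1 and 16.8 CPM in Maf1-/- and 10.1 to 17.9 CPM (median 10.5) in Ctrl, and Bdp1, a TFIIIB subunit chosen after its values were seen, had a log2(FC) of 0.50 ± 0.17 beside 0.48 ± 0.16 for Tbp. Brf2, the TFIIIB subunit used at U6-type promoters, measured 3.04, 3.11, 2.44, 2.88 and 2.92 CPM against 2.96 to 5.25 CPM (median 3.97), a log2(FC) of -0.50 ± 0.15. The TFIIIC subunit Gtf3c5 had a log2(FC) of -0.36 ± 0.12 and of -0.16 ± 0.12 with GC offsets. Ribonucleases that act on tRNA gave overlapping values, since Ang measured 92.3 to 128 CPM in Maf1-/- and 87.2 to 160.3 CPM in Ctrl (log2(FC) -0.21 ± 0.16) and Rnase4, which shares its locus, had -0.17 ± 0.15. Their inhibitor Rnh1 had a log2(FC) of -0.45 ± 0.17.

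Of 82 mRNAs of cytosolic ribosomal proteins 2 were higher and 24 lower at an unadjusted p under 0.05 (9 and 37 called in 10 mice, 6 and 19 with GC offsets), with a median log2(FC) of -0.19 and -0.09 with GC offsets. Rps28 measured 35.8, 44.9, 26.2, 32.4 and 28.2 CPM in Maf1-/- and 25.9 to 60.4 CPM (median 54.6) in Ctrl, and Rplp1, a stalk protein, measured 34.9, 44.0, 14.5, 8.29 and 23.98 CPM against 12.0 to 115 CPM (median 75.5). For both, Ctrl 2 was the lowest Ctrl mouse. The log2(FC) was -0.62 ± 0.19 for Rps28 and -1.47 ± 0.48 for Rplp1, and -0.63 ± 0.19 and -1.05 ± 0.35 with GC offsets. Respiratory chain and ATP synthase mRNAs gave 5 of 77 higher and 28 lower (14 and 35 called in 10 mice, 3 and 19 with GC offsets), with a median of -0.16. Atp5e, an ATP synthase subunit, had a log2(FC) of -0.74 ± 0.20 and the complex I subunit Ndufb11 of -0.56 ± 0.15, with -0.72 ± 0.20 and -0.40 ± 0.11 with GC offsets, whereas the cytochrome oxidase subunit Cox6a1 went from -0.63 ± 0.18 to 0.05 ± 0.12.

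Of 34 mRNAs of the mTOR complexes and their inputs 0 were higher and 9 lower at an unadjusted p under 0.05, a share of 26.5% beside 26.2% of all mRNAs. In 10 mice 6 were called higher and 15 lower, and with GC offsets 0 were higher and 3 lower. Akt1s1, the mTORC1 inhibitor PRAS40, had a log2(FC) of -0.50 ± 0.15 that became 0.12 ± 0.13 with GC offsets. Of 38 translation factors 3 were higher and 4 lower (11 and 8 called in 10 mice, 4 and 3 with GC offsets). Among these Eef2, the translocation factor of elongation, measured 453, 524, 308, 251 and 463 CPM in Maf1-/- and 225 to 825 CPM (median 706) in Ctrl, with Ctrl 2 below every Maf1-/- mouse (log2(FC) -0.72 ± 0.28).

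Of 29 transcription factors of the liver 2 were higher and 11 lower at an unadjusted p under 0.05, 4 and 16 were called in 10 mice, and 1 and 5 differed with GC offsets, and the median log2(FC) went from -0.29 to -0.05. Autophagy and lysosome mRNAs gave 3 of 39 higher and 10 lower (5 and 13 called in 10 mice, 2 and 8 with GC offsets), and mitochondrial carriers of the Slc25 family 1 of 38 and 11 (6 and 13, 1 and 9). Aminoacyl-tRNA synthetases gave 2 of 40 higher and 8 lower, but 11 and 11 in 10 mice, and 2 and 4 with GC offsets. Smaller shares were found among the proteasome (3 of 46 higher and 5 lower), sterol synthesis and uptake (0 of 25 and 2), the urea cycle and amino acid breakdown (2 of 30 and 3) and coagulation and complement (2 of 37 and 3). In each of these 4 lists the share in 12 mice was below the 26.2% of all mRNAs. In 10 mice their calls were 14 and 12, 0 and 4, 6 and 6, and 4 and 11 in the same order, and for the proteasome that was 56.5% beside 47.6% of all mRNAs. With GC offsets the counts were 4 and 3, 1 and 1, 3 and 0, and 1 and 0.

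Interferon induces both antiviral mRNAs and those of class I histocompatibility. Of 41 interferon-stimulated mRNAs 11 were higher and 0 lower at an unadjusted p under 0.05 (26.8% beside 26.2% of all mRNAs), 15 and 4 were called in 10 mice, and 6 and 1 differed with GC offsets, with a median log2(FC) of 0.17 that was 0.15 with 10 mice and 0.14 with GC offsets. Ifit3, an antiviral effector, measured 21.0, 26.3, 24.6, 29.5 and 25.3 CPM in Maf1-/- and 15.0 to 22.9 CPM (median 17.2) in Ctrl, a log2(FC) of 0.44 ± 0.13. Its near-identical neighbour Ifit3b, for which shared reads are uncertain, had 0.49 ± 0.15, and Ifi44 had 0.63 ± 0.21. Of 26 class I and antigen processing mRNAs, 1 was higher and 8 lower (34.6%), 3 and 12 were called in 10 mice, and 1 and 3 differed with GC offsets. The difference between both lists was not tested. The peptide transporter subunits Tap1 and Tap2 had log2(FC) of -0.56 ± 0.18 and -0.87 ± 0.29, and -0.22 ± 0.11 and -0.45 ± 0.17 with GC offsets. For Tapbp, which docks class I molecules to that transporter, the value of -0.40 ± 0.14 became 0.02 ± 0.08.

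The amino acid response through ATF4 gave 3 of 23 higher and 7 lower at an unadjusted p under 0.05 (2 and 9 called in 10 mice, 3 and 5 with GC offsets), with a median log2(FC) of -0.22 that became 0.017 with GC offsets. Members differed in direction. Atf5, a transcription factor of the response, measured 42.3, 90.3, 33.9, 28.6 and 33.7 CPM in Maf1-/- and 28.4 to 147 CPM (median 112) in Ctrl, and its log2(FC) of -1.23 ± 0.36 was -1.80 ± 0.14 with 10 mice (adjusted p = 7.09e-05) and -0.61 ± 0.22 with GC offsets. The phosphatase subunit Ppp1r15a, which reverses eIF2-alpha phosphorylation, had a log2(FC) of -0.57 ± 0.18. Of those chosen after their values were seen, the stress hormone Gdf15 had -1.83 ± 0.51 at levels of 0.0973 to 0.605 CPM in Maf1-/- and 0.216 to 1.99 CPM in Ctrl. Asns, the asparagine synthetase and a classical ATF4 target, measured 5.36, 16.8, 12.2, 36.5 and 11.8 CPM against 1.37 to 13.7 CPM (median 3.43), a log2(FC) of 1.54 ± 0.57 in the opposite direction, which was 1.03 without Maf1-/- 4.

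Of 32 mRNAs of one-carbon, NAD and polyamine metabolism 3 were higher and 8 lower at an unadjusted p under 0.05 (4 and 11 called in 10 mice, 3 and 3 with GC offsets). Nnmt, which uses S-adenosylmethionine to methylate nicotinamide, measured 4.92, 41.9, 31.7, 14.3 and 4.04 CPM in Maf1-/- and 2.76 to 148 CPM (median 50.1) in Ctrl, where the lowest was Ctrl 2. Its log2(FC) was -1.55 ± 0.76 with 12 mice and -2.26 ± 0.64 with 10 mice (exact two-sided permutation p = 0.111 and 0.0381 in the same order). Oaz1, the antizyme that restrains polyamine synthesis, had a log2(FC) of -0.84 ± 0.25, and -0.50 ± 0.15 with GC offsets, with a Ctrl 2 value of 54.8 CPM below all 5 Maf1-/- mice.

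The lowest log2(FC) with mean levels of at least 1 CPM included histone mRNAs. Hist1h4c measured 1.35, 1.495, 0.114, 0.214 and 0.612 CPM in Maf1-/- and 0.0541 to 8.23 CPM (median 4.43) in Ctrl, and Hist2h2aa2 measured 1.07 CPM in Maf1-/- 2 and 0 CPM in the other 4 Maf1-/- mice, against a Ctrl median of 2.83 CPM. Ctrl 2 held the lowest level of both among the Ctrl mice, at 0.0541 and 0 CPM. The log2(FC) with 12 mice was -2.43 ± 0.79 for Hist1h4c and -3.54 ± 1.16 for Hist2h2aa2, and the second also has near-identical copies among which reads may be split. Without Maf1-/- 2 all remaining Maf1-/- mice had 0 CPM of Hist2h2aa2, and its fitted values of -10.28 without that mouse and -10.50 with 10 mice depend on the prior count and are no bound.

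The comparison with the hepatocyte-specific line asks which differences appear when only hepatocytes lack Maf1. Its 4 Chow-fed Maf1hep-/- mice and their 4 Ctrl share no library with the whole-body cohort. The interaction of genotype and cohort, fitted over 20 mice, had 0 mRNAs at an adjusted p under 0.05 in edgeR and 1585 of 12855 (12.3%) at an unadjusted p under 0.05, which became 1048 and 4002 without Ctrl 2. Mettl7b, Noct, Plod2, Slc22a5, Nr0b2, Cyp3a11 and Tap1 were named for their whole-body values, which form part of the interaction. Their interactions are therefore too large on average and the p-values too small. Mettl7b had a log2(FC) of 0.03 ± 0.09 in Chow-fed Maf1hep-/- mice against -0.70 ± 0.11 in Maf1-/- mice, an interaction of -0.75 ± 0.15 (unadjusted p = 7.98e-05, adjusted p = 0.398). Noct had -0.13 ± 0.27 and an interaction of 1.298 ± 0.355, Plod2 -0.27 ± 0.23 and 1.25 ± 0.32, Slc22a5 0.36 ± 0.18 and -0.88 ± 0.23, and Nr0b2 0.35 ± 0.38 and -1.85 ± 0.55. Cyp3a11 had -0.31 ± 0.23 in Chow-fed Maf1hep-/- mice and 1.10 ± 0.52 in HF-fed Maf1hep-/- mice, and Tap1 had 0.44 ± 0.16 in the Chow-fed ones (interaction -1.02 ± 0.28). Ang had a negative log2(FC) in all cohorts, -0.21 ± 0.16 in Maf1-/- mice, -0.53 ± 0.23 in Chow-fed and -0.68 ± 0.13 in HF-fed Maf1hep-/- mice. Its interaction was 0.30 ± 0.29 (unadjusted p = 0.31 in the same edgeR fit). The median of the lipid droplet list was 0.043 in Chow-fed Maf1hep-/- mice beside -0.34 in Maf1-/- mice. Some other lists had closer medians in both lines, as the interferon-stimulated list with 0.17 and 0.17, ribosomal proteins with -0.16 and -0.19, the respiratory chain with -0.15 and -0.16, and ER chaperones with -0.14 and -0.21 in the same order. None of these differences between lists was tested. Both lines differ in more than the cells that lack Maf1.

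**Figure D5:**
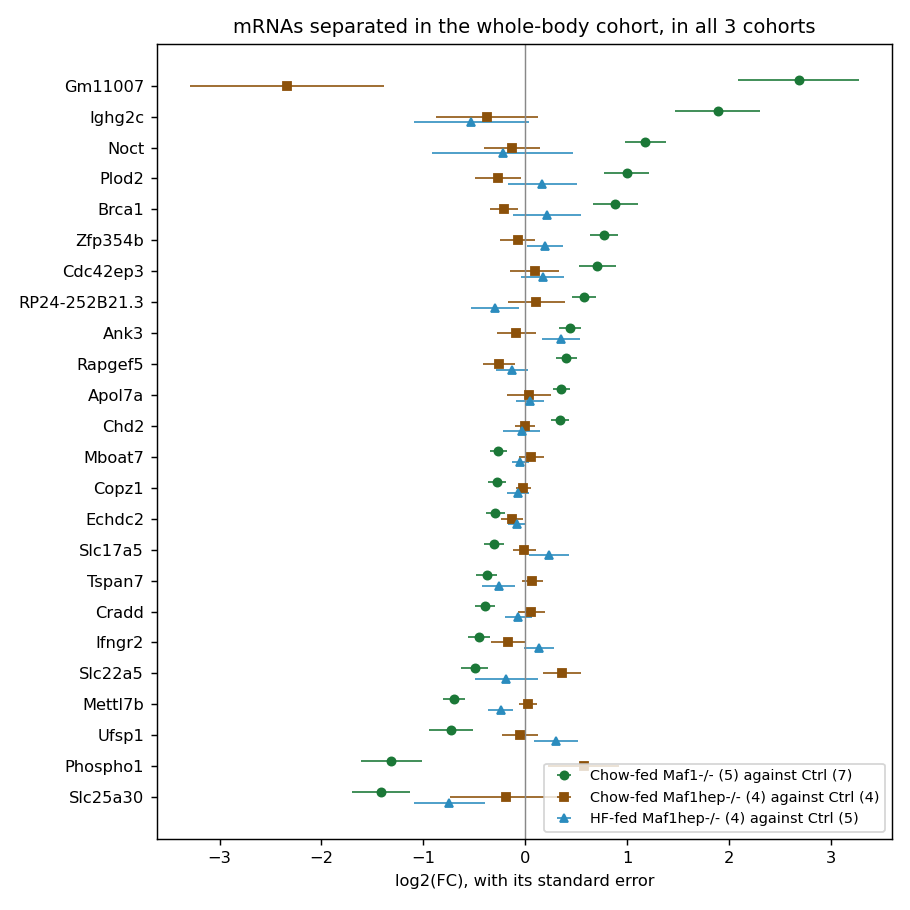
log2(FC) with its standard error (x axis) of mRNAs whose genotypes did not overlap in the whole-body cohort, there and in the Chow-fed and HF-fed hepatocyte-specific cohorts. These mRNAs were chosen on the whole-body values, and Mettl7b is at -0.70 in Maf1-/- and at 0.03 in Chow-fed Maf1hep-/- mice.

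Of the mRNAs higher in Maf1-/-, 4 lie within a stretch of chromosome 11 (GRCm38) and are described together, 3 of them chosen after their values were seen. Of all 55 genes tested between the outer members, 30 had a higher and 25 a lower level, with 13 and 8 at an unadjusted p under 0.05. Over all mRNAs 10.8% were higher and 15.4% lower at that level. The ends of the stretch were set by Cyfip2 and Olfr1372-ps1 with their values known, and the 4 described are among the 13. Whether the stretch stands out was not tested. Cyfip2 (gene start at 46193850), a regulator of actin assembly, measured 5.16, 9.76, 4.24, 1.99 and 4.70 CPM in Maf1-/- and 1.27 to 2.12 CPM (median 1.77) in Ctrl. The pseudogene Olfr1372-ps1 (52154722) measured 4.23, 8.82, 3.71, 1.85 and 4.10 CPM against 1.19 to 2.03 CPM (median 1.74). In both, mouse 2 was the highest and mouse 4, the only one within the range of Ctrl, the lowest. Between them lie Zfp354b (50921823) and Zfp354a (51059257), with log2(FC) of 0.78 ± 0.14 and 0.66 ± 0.19 and mouse 4 again the lowest of Maf1-/-, but mouse 5 the highest. The log2(FC) of Cyfip2 was 1.63 ± 0.28, with 1.72 ± 0.26 with GC offsets, and that of Olfr1372-ps1 was 1.41 ± 0.29. In Chow-fed Maf1hep-/- mice these were 0.97 ± 0.55 for Cyfip2 and -0.09 ± 0.40 for Olfr1372-ps1.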

How the data were processed

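Liver RNA-seq of 29 male mice was deposited, of which the 12 of the whole-body cohort are described. According to the methods, the authors trimmed reads (TrimGalore), aligned them to mm10 (STAR) and deposited expected counts per gene from RSEM. Their own tests used TMM scaling in edgeR 3.32.1, limma and RUVr factors whose number is not given in the sources used here. Library preparation is described only by citation.

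Here expected counts were rounded to whole numbers, a gene was tested if any mouse reached 1 CPM, and Maf1-/- was compared with Ctrl by the edgeR quasi-likelihood test (R 4.3.3 with edgeR 4.0.16, DESeq2 1.42.0 and limma 3.58.1, and SciPy 1.17.1 for exact tests) with TMM scaling and Benjamini-Hochberg adjustment over all genes. CPM are TMM-scaled. GC content and positions came from GENCODE (GRCm38), promoters from RefSeq. GC offsets subtract a spline over GC content with 8 degrees of freedom from each library. The spline was fitted to log2 CPM as deviations of each mRNA from its mean over the mice in the fit. With 12 simulated mice, 81.5% of 200 genes altered by a factor of 2 were found at an adjusted p under 0.05, with 6 false calls among 12796 genes. The altered genes had a mean of at least 1 CPM. Each gene was drawn independently, so the simulated libraries had no GC slope and no mouse like Ctrl 2. That share therefore does not give the power of the fit to the real 12 mice. Libraries were taken as separate mice from their numbered labels, and p-values measure the spread between them. Single values were checked by exact permutation.

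The gene groups and rules were chosen with earlier results of these data known. Named genes are the 12 higher and 12 lower non-overlapping genes with the smallest p and a mean of at least 1 CPM, up to 3 genes of each list with an unadjusted p under 0.05 in 12 mice and an adjusted p under 0.05 in 10 mice, the 6 higher and 6 lower with the largest fold among calls in 10 mice, and 15 genes the study names. A gene outside these rules is said to be chosen after its values were seen, and a gene within them may be left to the counts. Alternatives were RLE or total scaling, other filters, DESeq2, limma-voom with 0 to 3 RUVr factors or weights per mouse, GC offsets, all 29 mice, each mouse left out and the replicate number as a block.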

Additional observations from a re-analysis of the deposited data

Results flagged for a closer look

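A check for a mouse far from the rest of its genotype used Dixon's ratio at the 95% level. It covered 74 groups, the GC slope and 36 mRNAs in each genotype, and marked 10. The mRNAs were non-overlapping ones named above and others picked with their values known, among them Cyp7a1, Cyp3a11, Nr0b2 and Zfp36. The 10 marks therefore cannot be set against the 1 group in 20 that chance alone marks. Ctrl 2 was marked 5 times. Its GC slope was -0.919 on the log2 scale. Its mRNA levels stood apart for Cyp7a1 (334 CPM), Cyp3a11 (5893 CPM), Nr0b2 (3.89 CPM) and Zfp36 (16.4 CPM), each on the side of the Maf1-/- mice. Maf1 and Gm35339 in Ctrl 2, at 4.61 and 1.01 CPM, were on the side of Ctrl. Whether the GC slope of this library and its mRNA levels are related was not tested.

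Maf1-/- 4 stood apart for Cyp2a4 (150.0 CPM) and Ighg2c (8.33 CPM). Ctrl 5 stood apart for Cyp2a4 (5.02 CPM), Ctrl 6 was low for Ank3 (22.2 CPM), and Maf1-/- 1 was low for Plod2 (1.11 CPM).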

How the results depend on the processing

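With 12 mice, 0 genes outside the Maf1 locus passed an adjusted p of 0.05 under RLE scaling, library totals, no filter, filterByExpr, GC offsets and the replicate block, while DESeq2 called 312, limma-voom 1, limma-voom with 1, 2 or 3 RUVr factors 4325, 5298 and 6144, limma-voom with weights per mouse 6063, and 1 fit of all cohorts 2264. Leaving out both libraries numbered 2 gave 6055, or 2926 with GC offsets as well (chosen after seeing the data). Leaving out 1 mouse gave 0 to 4524, namely 4524 without Ctrl 2, 4 without Maf1-/- 4, 1 without Maf1-/- 5 and 0 for the others. The 3357 genes at an unadjusted p under 0.05 became 5721, 6402 and 7054 with RUVr factors, 6992 with weights, 6996 without both libraries numbered 2, and 1839 to 6062 with 1 mouse left out (6062 without Ctrl 2, 1839 without Maf1-/- 3, 2073 without Maf1-/- 4). The fit over all cohorts gave 4772. Replicate numbers gave no common pairing of the mice. Deviations from the mean of each genotype correlated at -0.57 to 0.34 between same-numbered mice. For number 1, at 0.34, the same-numbered Ctrl was the closest Ctrl mouse, and for the other numbers it was not. With the replicate block 500 genes had an unadjusted p under 0.05. With 10 mice the 6055 calls became 2926 with GC offsets and 3633 with the replicate block, and 4898 to 6439 with 1 more mouse left out. Cohort interactions rose from 0 to 3650 without both libraries numbered 2, and ranged from 0 to 1048 with 1 mouse left out (1048 without Ctrl 2). The causes were not tested.

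Of 133 named genes, 12 changed direction under some alternative. With GC offsets log2(FC) became 0.14 for Echdc2, 0.18 for Fasn, -0.015 for Pdk4, 0.18 for Slc25a1, 0.050 for Cox6a1, 0.12 for Akt1s1 and 0.023 for Tapbp. With GC offsets in 10 mice it was 0.35 for Echdc2, 0.072 for Fasn, 0.0045 for Scd1, 0.43 for Slc25a1, 0.062 for Hspb1, 0.18 for Cox6a1, 0.27 for Akt1s1 and 0.073 for Tapbp. Scd1 was 0.11 without both libraries numbered 2. Hsd3b5 was 0.070 in limma-voom, 0.070, 0.090 and 0.076 with 1, 2 and 3 RUVr factors and 0.13 with weights. With 1 mouse left out log2(FC) ranged from -0.69 to 5.50 for Cyp2a4, from -0.30 to 0.044 for Egfr, from -0.47 to 0.028 for Fasn, from -0.46 to 0.32 for Hsd3b5 and from -0.49 to 0.054 for Scd1. Of 41 list medians, 10 changed sign with GC offsets. At 48658192 counts or more per library, depth limits mainly genes near 1 CPM.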
